A study of Mus musculus with 12 samples.

Results

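Described here are the 19312 peaks of the first knockdown library, called knockdown 1, that overlapped no peak of the other 5 lists by even 1 bp. They were chosen by position alone, as the peaks that met no other list, so their number, width, reads and fold enrichment are given as descriptions. They made up 90.3% of the 21398 peaks of that library (95% Wilson interval 89.8 to 90.6, counting error only). A like share, 88.0% of the 17592 peaks of knockdown size3, was found only in that list. All 6 lists together held 46669 peaks. The experiment immunoprecipitated chromatin of MC3T3-E1, a mouse osteoblast line, with an antibody against MACF1. The 12 samples were 3 control immunoprecipitates, 3 immunoprecipitates from cells with MACF1 knockdown, and the input of each. Both genotypes are the same cell line, and the libraries of each carry the labels 1, 2 and size3. The labels and headers do not say how MACF1 was knocked down, whether libraries came from separate cultures or what size3 stands for. They list more than 1 lot of the antibody without saying which library each served. The members come from 1 library, so they have no replicate, and no test across samples can be made on them. Expression was not measured, so neither the osteoblast identity of the cells nor the knockdown was checked.

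MACF1 is a very large protein that ties actin filaments to microtubules. In the Wnt pathway, secreted Wnt ligands bind Frizzled receptors and their co-receptors, which spares beta-catenin from destruction and lets it act with TCF/LEF factors on target genes. Osteoblasts depend on this pathway to mature. The study's title places MACF1 with repressors of Wnt signalling in the cytoplasm. Chromatin immunoprecipitation followed by sequencing asks where in the genome the antibody recovered more DNA than the input did, and a peak is a stretch where the caller found such an excess. Gene starts in mammals often lie in CpG islands, stretches rich in C and G in which the CpG pair is not depleted.

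Among the members wider peaks tended to have a lower enrichment. The sequences before 6 gene starts are shown because their peaks had either a high fold or a great width. The first 4 are those genes of the lists described further on whose start lay inside a member peak of the highest fold enrichment, the authors' value per peak for reads at the summit over the local background. The other 2 were chosen after their values were seen, from the named members that were widest or held the most reads, because the summit lay within 1 kb of a start. The plan allowed at most 6 genes by fold, and the next 2, Olfr1411 (6.12) and Dpp6 (6.01), are not shown. Each sequence is the 250 bases before the start, from RefSeq on GRCm38.p6, read 5′ to 3′ along the gene. Capitals mark matches on either strand to GGGCGG (the GC box), CCAAT (bound by NF-Y), TATAAA (the TATA box), TTCCCGC (E2F), CTTTGAT (TCF/LEF), CCGGAAG (ETS), GCATGCG (NRF1) or TGACGTC (cyclic AMP response element). E-boxes (CANNTG) are common and were left in lower case.
Cdh12, chr15:21111202-21111451, plus strand: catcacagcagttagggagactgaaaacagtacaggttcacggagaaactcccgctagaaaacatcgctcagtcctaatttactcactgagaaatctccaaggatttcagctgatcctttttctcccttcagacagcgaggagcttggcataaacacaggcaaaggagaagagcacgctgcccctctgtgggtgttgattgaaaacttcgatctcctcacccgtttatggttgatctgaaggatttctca
Ntm, chr9:29412686-29412935, minus strand: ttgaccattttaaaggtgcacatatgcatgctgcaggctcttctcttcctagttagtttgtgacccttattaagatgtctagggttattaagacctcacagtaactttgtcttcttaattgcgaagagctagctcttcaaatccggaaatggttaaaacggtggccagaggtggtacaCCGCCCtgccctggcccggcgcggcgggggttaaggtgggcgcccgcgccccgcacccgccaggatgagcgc
Acvr1c, chr2:58357759-58358008, minus strand: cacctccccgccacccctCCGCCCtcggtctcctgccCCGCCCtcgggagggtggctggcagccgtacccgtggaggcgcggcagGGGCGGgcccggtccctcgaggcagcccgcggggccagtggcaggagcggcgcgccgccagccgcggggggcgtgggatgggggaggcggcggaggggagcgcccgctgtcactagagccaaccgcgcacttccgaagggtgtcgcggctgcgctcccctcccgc
Zfp59, chr7:27838334-27838583, plus strand: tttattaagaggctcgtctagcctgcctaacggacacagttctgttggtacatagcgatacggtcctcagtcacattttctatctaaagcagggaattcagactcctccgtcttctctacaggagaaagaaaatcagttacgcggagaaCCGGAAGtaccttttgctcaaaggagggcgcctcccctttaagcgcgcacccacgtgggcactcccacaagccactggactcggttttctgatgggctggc
Pacsin1, chr17:27684989-27685238, plus strand: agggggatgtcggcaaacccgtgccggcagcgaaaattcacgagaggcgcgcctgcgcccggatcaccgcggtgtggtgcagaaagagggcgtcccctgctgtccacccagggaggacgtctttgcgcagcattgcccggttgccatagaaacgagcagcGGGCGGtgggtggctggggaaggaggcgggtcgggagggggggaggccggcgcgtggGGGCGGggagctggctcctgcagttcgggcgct
Per1, chr11:69099902-69100151, plus strand: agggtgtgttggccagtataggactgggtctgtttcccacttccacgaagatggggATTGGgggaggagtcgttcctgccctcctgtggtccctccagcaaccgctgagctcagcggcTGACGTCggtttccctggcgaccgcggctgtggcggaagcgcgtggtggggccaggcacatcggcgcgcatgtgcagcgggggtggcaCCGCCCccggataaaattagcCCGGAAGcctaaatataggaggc

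The peaks at the first 4 starts were 475 to 1408 bp wide, on both sides of the members' median of 943 bp. The peak at Cdh12, a neuronal cadherin gene, was 720 bp wide with 27 reads and a fold enrichment of 8.35. At Ntm, which encodes the neuronal adhesion protein neurotrimin, the peak was 1120 bp wide with 52 reads and a fold enrichment of 7.5. The peak at Acvr1c, an activin receptor gene, was 1408 bp wide with 78 reads and a fold enrichment of 7.03. That at Zfp59, a zinc finger gene, was 475 bp wide with 18 reads and a fold enrichment of 6.68. The peaks at the last 2 starts were far wider, with a lower fold than these 4, a contrast set by how the genes were chosen. Pacsin1, a gene of endocytosis in neurons, lay under a peak of 9292 bp with 631 reads and a fold enrichment of 3.42, with the summit 73 bp past the start. Per1, a gene of the circadian clock, lay under one of 10277 bp with 574 reads and a fold enrichment of 5.23, with the summit 609 bp past the start. The 300 bases around the start, 250 before it and 50 after, had a GC content of 46.7% at Cdh12, 55.7% at Ntm, 79.0% at Acvr1c, 54.3% at Zfp59, 71.7% at Pacsin1 and 64.7% at Per1.

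Width ranged from 289 to 11417 bp with a median of 943 bp (quartiles 667 and 1602). Reads per peak ranged from 16 to 818 with a median of 43 (quartiles 26 and 87). Wide members held more reads (Spearman rho 0.94 across 19307 members on placed chromosomes) and had a lower fold (rho -0.75). These are descriptions across peaks of 1 library. The fold enrichment ranged from 2.32 to 15.99 with a median of 5.09. Members covered 25.9 Mb, 0.962% of the span of the chromosomes between their first and last gene, and held 7.33% of the reads of the immunoprecipitate.

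How the members differed from the 2086 knockdown 1 peaks that overlapped another list is in part set by the rule, since a wide peak has more room to overlap. The overlapping peaks had a median width of 1744 bp, a median of 109 reads and a median fold enrichment of 4.03. Per kb of peak, members held a median of 45.4 reads and overlapping peaks 56.7. Of the knockdown 1 peaks under 500 bp, 96.8% were members. The share was 94.9% from 500 bp, 89.2% from 1000 bp, 83.1% from 2000 bp, 77.6% from 3000 bp and 66.5% from 5000 bp upward. So wide peaks too were mostly members, among them 354 of the 532 peaks of at least 5000 bp. By reads, the share fell from 97.0% of peaks under 25 reads to 59.9% of those with at least 400.

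**Figure D1:**
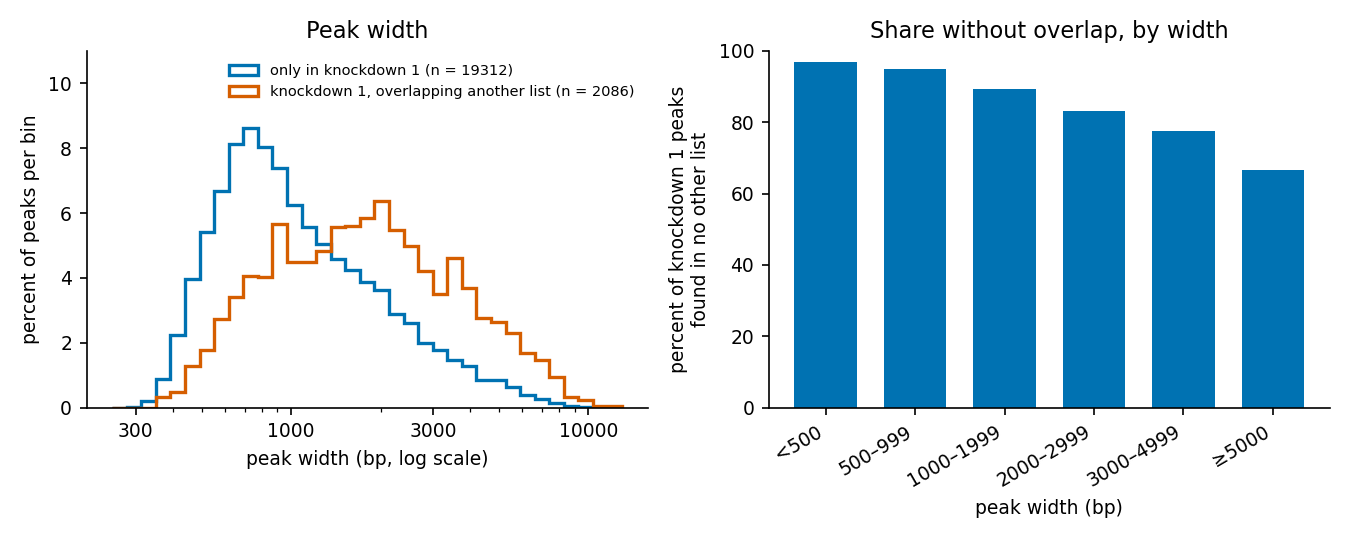
Left, the width of knockdown 1 peaks in bp on a log axis, as percent of peaks per bin, for the 19312 found in no other list and the 2086 that overlapped another list. Right, bars give the percent of knockdown 1 peaks found in no other list in 6 width classes, from 96.8% under 500 bp to 66.5% from 5000 bp.

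Depth differed between the libraries that the rule compared. Knockdown 1 held 18454330 reads after duplicate removal, with a redundant rate of 0.51, and the other 5 immunoprecipitates held 5575205 to 33085606. Knockdown size3, which met most of the overlapping peaks (1960 of 2086), held 44.3% as many reads as knockdown 1. At that depth the median of 43 reads would scale to 19.05, beside 11 reads in its smallest and 17 in its median peak. These counts leave width aside: the median was 943 bp for members and 631 bp for peaks found only in knockdown size3. Per kb of peak, before any scaling, the medians were 45.4 and 26.5 reads. So the scaled count does not show whether a typical member would be called at that depth. Control size3 met 105 knockdown 1 peaks, knockdown 2 met 43, control 2 met 1 and control 1 met 0. The lists differed in length, and a short list can meet few peaks. Knockdown size3 held 17592 peaks, knockdown 2 4513, control size3 2196, control 1 772 and control 2 198. What part depth, duplicates or list length had in leaving members without a partner was not tested.

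The rule's limit of 1 bp divided a few close neighbours. A member inside Pmepa1 (chr2:173229293-173234074) ended directly beside a peak of another list, with 0 bp between them. Members inside Thnsl2 (chr6:71141113-71141865), Htra3 and Pde1c and near Rnf2 stood 9, 12, 13 and 14 bp away. Widths of these 5 ran from 610 to 4838 bp and fold enrichments from 2.60 to 9.25. On the other side of the limit, the smallest cover of an overlapping peak was 10 bp, and 11 were covered for at most 50 bp. Such cases were few: 52 members lay within 100 bp of a peak of another list. The median gap to the nearest peak of any other list was 21672 bp, and 28.8% of members had one within 10 kb. The median gap to the nearest other member was 24178 bp, and 28.1% had one within 10 kb.

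The caller's own quality measures did not run in 1 direction. The score of a peak is 10 times the negative log10 of its p-value, and its false discovery rate is the percent of peaks at that score or better when immunoprecipitate and input trade places. The median score was 63.2 and the median rate 2.77%, and 19156 members (99.2%) had a rate of at most 5%. None had a rate of at most 1%, the lowest being 1.30%. The rate was lowest, with a median of 1.48%, at scores from 80 to below 100. It rose again at the highest scores: all 63 members with a score of at least 200 had a rate above 5%. The 156 members above 5% had scores of 168.76 to 386.50, and 4 were at 100%. The top score belonged to a peak in Efna3, with a rate of 100%.

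Members gathered just past gene starts. Of the 19307 on chromosomes 1 to 19, X and Y, 2119 had their summit within 1 kb of an annotated start of a protein-coding gene, 10.98% (Wilson interval 10.54 to 11.42). The same windows hold 1.39% of the bases, a ratio of 7.91. The bin from 0 to 250 bp past the start held the most, 764 summits or 3.96% of members, and the bin of 250 bp before the start held 400. Of the 2119, 69.5% lay past the start, and the median offset was 123 bp (quartiles -43.5 and 342). Among the 1862 members with a score of at least 100, which had medians of 1764 bp and 111 reads, 24.1% had the summit at a start. Starts came from the promoter table, which covers 79.9% of the genes and none on chromosome 18, so these shares are low estimates. The overlapping knockdown 1 peaks had 21.7% of summits at starts (20.0 to 23.5), with a median offset of 165 bp. Peaks found only in knockdown size3, 15475 in number, had 7.29% (6.89 to 7.71), with a median offset of 134 bp. In each of the 3 sets the 250 bp just past the start held the most summits. Peaks of 1 library are not replicates of a condition, so these differences have counting intervals and no test.

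**Figure D2:**
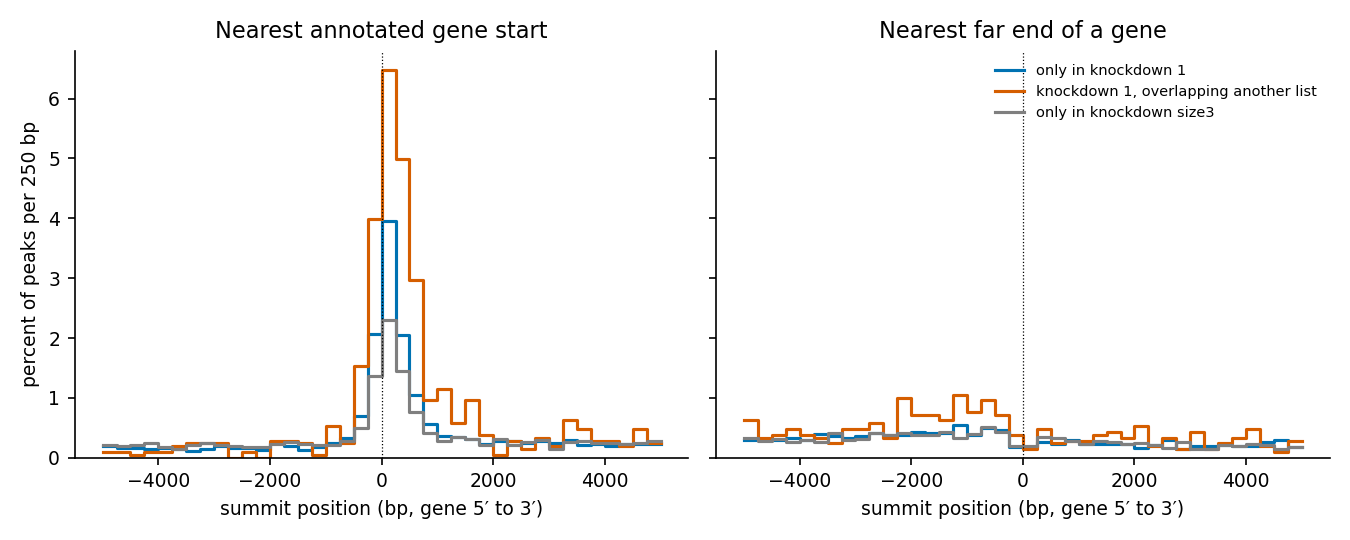
Percent of peaks per 250 bp by the position of the summit from the nearest annotated gene start (left) and from the nearest far end of a gene (right), read along the gene. The 3 lines are peaks only in knockdown 1, knockdown 1 peaks overlapping another list and peaks only in knockdown size3. The line of the members reaches 3.96% just past the start, and no such rise stands at the far end.

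The far ends of genes held fewer members than the starts, though more than their share of bases. Summits within 1 kb of the end where transcription stops numbered 482, or 2.50% (2.29 to 2.73), against 1.25% of bases. They stood inside the gene more often than past it, 293 against 189. The 250 bp directly before this end and the 250 bp directly after it held 36 summits each, while the 250 bp from 1250 to 1000 bp before it held 107. Most members lay away from both ends. Inside protein-coding genes lay 60.7% of summits, against 38.3% of bases. Those inside a gene and over 1 kb from its ends were 49.2% of members. Outside genes and their 1 kb flanks lay 36.3%, and 15.5% lay outside genes and over 50 kb from any. No share of bases was taken for these 3 places, and most bases lie outside genes.

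What kind of place a member lay in went with its width. In the narrowest of 4 equal width classes (289 to 667 bp), 1.16% of summits were within 1 kb of a start. These windows hold 1.39% of bases, inside the Wilson interval of that class, so the class showed no excess at starts. The share of summits at starts was 5.25%, 17.7% and 19.8% in the next classes, each above the share of bases. Summits outside genes and their flanks made up 51.1%, 45.2%, 32.5% and 16.5% in the same order. No share of bases was taken for that place. In the narrowest class 47.9% of summits lay inside genes, against 38.3% of bases. The share deep inside genes was 45.9%, 47.3%, 45.2% and 58.6%. Fold enrichment, split the same way, ran opposite: 22.2% of the class of lowest fold and 2.00% of the class of highest fold lay at starts. Members at starts had a median of 99 reads and a fold of 4.03, and those over 50 kb from any gene had 27 reads and a fold of 6.21. Of the class of highest fold, 46.5% of summits lay inside genes, against 38.3% of bases, and 52.2% outside genes and their flanks.

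**Figure D3:**
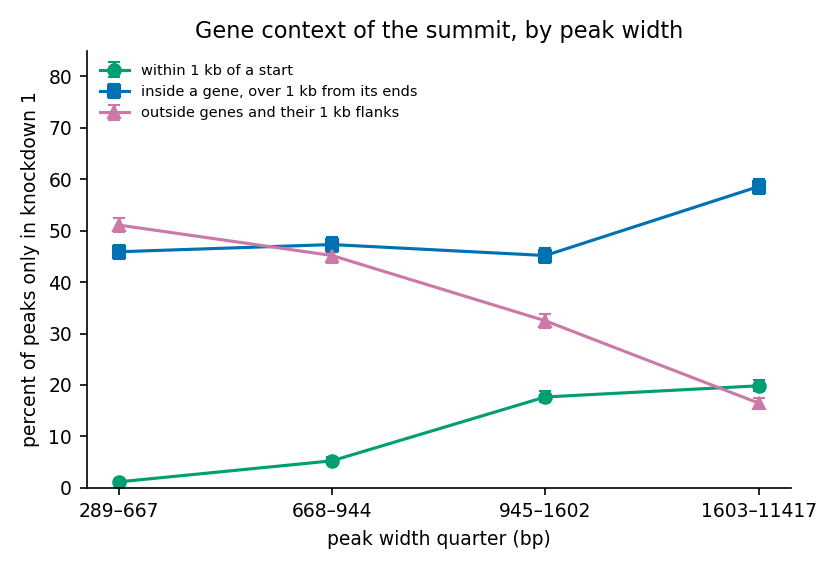
Percent of the members in each of 4 equal width classes whose summit lay within 1 kb of a start, inside a gene over 1 kb from its ends, or outside genes and their 1 kb flanks. Error bars are 95% Wilson intervals, covering counting error only. The share at starts goes from 1.16% to 19.8% and the share outside genes from 51.1% to 16.5%.

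The starts inside member peaks were rich in G and C. Of 21262 annotated starts, 2702 lay inside a member peak (12.7%), 662 inside an overlapping knockdown 1 peak (3.11%) and 1052 inside a peak found only in knockdown size3 (4.95%). The 300 bases around the start had a median GC content of 63.7% where a member covered it (quartiles 57.3 and 70.3). The median was 54.7% where no knockdown 1 peak did. It was 65.7% at the overlapping knockdown 1 peaks and 62.0% at the peaks found only in knockdown size3. Median CpG pairs per 300 bases were 23 at member starts and 10 at starts without a knockdown 1 peak. The ratio of observed to expected CpG was 0.775 and 0.492 in the same order. A sequence with that ratio keeps most of the CpG pairs that its base composition would give, as in a CpG island.

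The share of starts under a member rose with each step of GC content. It was 0.216% below 40% GC (4 of 1856 starts, interval 0.0838 to 0.553), 4.35% from 45% to 50%, 13.9% from 55% to 60%, 20.7% from 65% to 70% and 30.2% from 75% (329 of 1088, interval 27.6 to 33.0). Peaks found only in knockdown size3 covered 0 of the starts below 40% GC, 8.93% from 70% to 75% and 7.17% from 75%. By CpG pairs, members covered 0.993% of starts with fewer than 2 and 24.8% of those with at least 30. The base composition of the peaks outside promoters was not analysed here, since no genome was used. Whether base composition as such had a part in this pattern was not tested.

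**Figure D4:**
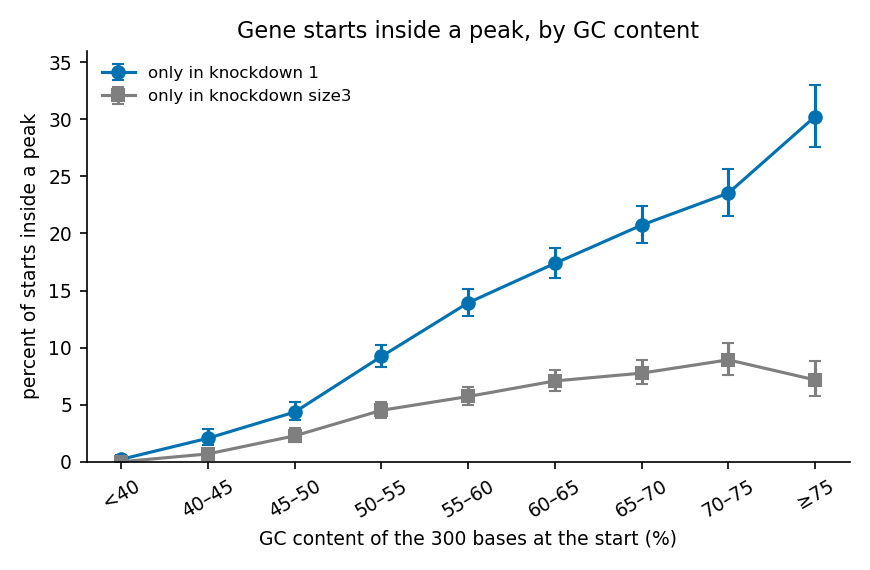
Percent of annotated gene starts inside a peak against the GC content of the 300 bases around the start, for peaks only in knockdown 1 and only in knockdown size3. Error bars are 95% Wilson intervals. The members go from 0.216% below 40% GC to 30.2% from 75%, and the knockdown size3 peaks stay at or below 8.93%.

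The share of starts with a given motif differed between member starts and all starts. GGGCGG stood in 67.9% of member starts (66.1 to 69.6) and 46.2% of all starts, counted in 300 bases on both strands. TATAAA stood in 5.37% and 12.6%. The E2F motif TTCCCGC stood in 8.36% (7.38 to 9.47) and 5.95%. The E-box CANNTG, bound by helix-loop-helix factors, stood in 62.3% (60.4 to 64.1) and 69.0%. The TCF/LEF motif CTTTGAT stood in 1.81% and 3.22%, CCAAT in 33.7% and 38.2%, CCGGAAG in 15.1% and 11.6%, GCATGCG in 5.74% and 4.44% and TGACGTC in 5.14% and 3.84%. A match of TTCCCGC can share bases with one of GGGCGG. The same shares were taken among starts of 60% to 65% GC alone, 545 under a member and 2455 under no knockdown 1 peak. They were 69.4% and 71.98% for GGGCGG, 4.40% and 4.93% for TATAAA, 9.36% and 8.43% for TTCCCGC and 67.3% and 65.0% for CANNTG. They were 1.28% and 1.996% for CTTTGAT, 36.7% and 38.9% for CCAAT and 18.7% and 20.4% for CCGGAAG. For GCATGCG they were 8.81% and 6.52%, and for TGACGTC, higher at member starts over all GC classes, 4.59% and 6.48%. A match is a run of letters and not a bound site. Of the printed sequences, Acvr1c has 3 GC boxes and Pacsin1 has 2, while Ntm and Per1 have 1 each. Zfp59 and Per1 each hold 1 CCGGAAG, Per1 also 1 CCAAT and 1 TGACGTC, and Cdh12 none of the marked motifs.

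Chromosomes with more genes per Mb held more members. Across the 19 autosomes, members per Mb ranged from 4.10 on chromosome 13 to 11.3 on chromosome 11, with a median of 8.13. Their relation to genes per Mb had a Pearson r of 0.73 and a Spearman rho of 0.82, given as a description, since the chromosomes share 1 library. The members per Mb also went with those of peaks found only in knockdown size3 (r 0.82, rho 0.76), which ranged from 1.82 on chromosome 13 to 11.6 on chromosome 19. Chromosome X, with 5.66 genes per Mb, held 238 members or 1.39 per Mb. Chromosome 12, also with 5.66 genes per Mb, held 6.78. Peaks found only in knockdown size3 were sparse on X too, 75 or 0.439 per Mb, under their lowest autosome value of 1.82. Member summits at a gene's start or far end, by the 1 kb window, were 31.5% of the members on X and 14.4% of all placed members. The Y chromosome held 1 member and unplaced sequence 5. The share of knockdown 1 peaks that were members ran from 84.9% on chromosome 19 to 95.8% on chromosome 13 among autosomes and was 96.7% on X.

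**Figure D5:**
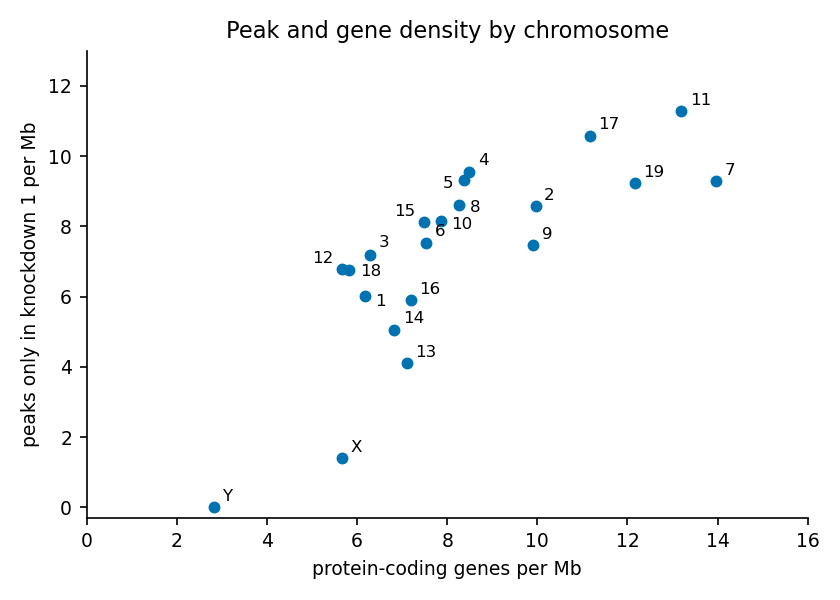
Members per Mb against protein-coding genes per Mb, 1 point for each chromosome, with Mb measured from the first to the last gene. Chromosomes 11 and 17 stand highest at 11.3 and 10.6 members per Mb. Chromosome X stands at 1.39, under every autosome.

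Within chromosomes the density was uneven too. Of 2705 windows of 1 Mb, 421 (15.6%) held no member and the median was 5. Windows without a protein-coding gene held a mean of 1.52 members ± 2.02 (SD, n = 244 windows), and those with 20 to 39 genes held 14.3 ± 8.40 (SD, n = 240 windows). The fullest was chr4:140000001-141000000, with 42 members over 10 genes. Next came chr8:70000001-71000000, with 40 members and 53 genes, and chr8:120000001-121000000, with 40 and 11. The last holds Gse1, which encodes a coiled-coil protein of a histone demethylase complex. Gse1 had 18 member summits in its 353 kb.

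The members of highest fold lay far from annotated starts. The highest fold enrichment, 15.99 with 52 reads, was at chr12:91481944-91482764 inside Tshr, the thyrotropin receptor gene. Members inside Mthfd2l, a mitochondrial folate enzyme gene, and between genes nearest to Armc1 both had 14.55, with 33 and 38 reads. The nearest gene to the latter was 247487 bp away. A member 4738 bp from Neurod4, a neuronal transcription factor gene, had a fold enrichment of 13.58. Members near Tmco5b and inside Fer, a tyrosine kinase gene, had 13.09 each. That nearest to Dok5 had 12.96. Cdk14, a cyclin-dependent kinase gene that acts in Wnt signalling, Stpg2 and the region nearest to Tafa5 had 12.61 each. These 10 peaks were 485 to 841 bp wide with 29 to 52 reads, and none held an annotated start. Their false discovery rates were 1.41% to 5.0%, except 14.5% at Tshr, 10.9% at Tmco5b, 5.53% at Mthfd2l and 5.45% at Cdk14. Their summits lay 16724 to 935471 bp from the nearest annotated start. The promoter table covers 79.9% of the genes, so these distances are upper limits. The largest is that of the member 247487 bp from Armc1.

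The members with the most reads were wide and lay in or beside genes. Efna3, which encodes an ephrin ligand, had 818 reads in a peak of 9807 bp (chr3:89314085-89323891) that covered its start, with a fold enrichment of 4.92. It stood 256 bp from a peak of another list. Gamt, a gene of creatine synthesis, had 814 reads in the widest member, 11417 bp (chr10:80251960-80263376), with a fold enrichment of 3.32. Ttbk1, a tau kinase gene, had 670 reads, Kctd17 657, Lingo3 635 and Srebf1, a master regulator of lipid synthesis, 633. Pacsin1 followed with 631, Dohh with 619, Brd2, a reader of acetylated histones, with 618, and Evpl, a plakin gene of the same family as Macf1, with 604. Fold enrichments of these 10 ran from 2.84 to 4.92, and 5 of the 10 covered an annotated start. The widest members further included peaks in Per1, in Gse1 (chr8:120545513-120555622, 10110 bp), in Creb3l3, a liver transcription factor gene, and in Sh3pxd2a, Nrxn2 and Helz2. Their widths were 8651 to 10277 bp, and their false discovery rates 1.52% to 1.99%, except 41.2% at Sh3pxd2a. False discovery rates of the 10 members with the most reads were 1.4% to 3.33%, except 100% at Efna3, 71.4% at Evpl and 46.2% at Srebf1.

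Macf1, the gene of the immunoprecipitated protein, had 1 member and no overlapping knockdown 1 peak within 5 kb. The peak, at chr4:123685611-123688035, was 2425 bp wide with 138 reads, a fold enrichment of 3.96 and a false discovery rate of 3.18%. Macf1 is read from the minus strand. The summit lay 2374 bp before the 1 start the promoter table gives, at 123684360, and the peak did not hold that start. The peak held the upper end of the gene in the gene table, 123687802.

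Of 21883 protein-coding genes, 8544 (39.0%) had a member summit in the body or within 5 kb. In the body alone it was 6920 (31.6%). A single member was found at 5348 of the 8544 genes, 2 at 1866 and 5 or more at 385. Long genes met members more often: 14.7% of genes under 5 kb had 1, 43.5% of those from 20 to 50 kb and 83.6% of those of at least 300 kb. The median length was 32.2 kb for genes with a member and 11.1 kb for those without. Cdh13, a cadherin gene of 1185 kb, had the most summits inside it, 19. Gse1 had 18, Camta1, a calmodulin-binding transcription factor gene, 17, and Sipa1l3, Cdh23, Nav2 and Asic2 had 16 each. Mad1l1, a spindle checkpoint gene, had 15, and Agap1 and Csmd2 had 14. Per 100 kb of gene, Sipa1l3 was the densest of these 10 with 8.05, and Asic2 the sparsest with 1.47. Of the 17491 genes with a start in the promoter table, 2351 (13.4%) had a start inside a member peak. These 2 percentages are the values to read each gene list against. The share with a member rose with gene length and the share of covered starts with GC content. So neither percentage is matched to the length or GC of a list.

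A member lay in the body or within 5 kb of 52 of 74 Wnt pathway genes (70.3%), and 19 of the 51 with a known start (37.3%) had a start inside one. The list's median gene length was 34.5 kb, against 17.2 kb over all genes, and the median GC content of its starts was 67.3%, against 56.3%. What part length and GC had in the count was not tested. The genes with covered starts are all named here, after their values were seen, by their roles. Among the ligands were Wnt2b, Wnt3a and Wnt4, with 226, 226 and 194 reads in peaks of 2945 to 3519 bp. Among the receptors were Fzd1, Fzd4, Fzd5, Fzd10, Ror1 and Ryk, with 77 to 259 reads. Inside the cell came Gsk3b and Axin2, of the complex that destroys beta-catenin, with 146 and 213 reads. In the nucleus came Tle3, a corepressor, and Bcl9, Pygo1 and Pygo2, partners of beta-catenin. Secreted inhibitors were Wif1 and Sost, the sclerostin gene of osteocytes, with 155 and 109 reads. Rspo1, an amplifier of Wnt signals, and its receptor gene Lgr4 completed the 19. Fold enrichments of these peaks ran from 2.83 at Fzd1 to 5.33 at Rspo1. The 4 Wnt genes with the highest fold at any member were Wnt16 (8.44), the co-receptor gene Lrp6 (7.83), Tle1 (7.77) and Ryk (7.76), each in a peak of 541 to 629 bp inside the gene with 20 to 31 reads.

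Here and below, the starts of a list are counted by gene, each gene with a known start once. Of the osteoblast genes, 24 of 52 (46.2%) had a member in or near the gene. Of the 36 with a known start, 3 (8.33%) had a start inside one: Ank, Igf1 and Tnfsf11, which encodes the osteoclast-inducing RANKL. The median GC of the list's starts was 56.0%. Its median gene length was 26.9 kb, and 43.5% of all genes from 20 to 50 kb had a member. Among those with the highest folds was Igf1r, the receptor gene of insulin-like growth factor, with a peak inside the gene (8.24, 17 reads). Twist1, a brake on osteoblast maturation, had one with its summit 1505 bp before its start (7.81, 28 reads). Runx2, the master factor of the lineage, had 4 members, the best with a fold enrichment of 6.79 and 16 reads at chr17:44784478-44784947. Of BMP, TGF-beta and Notch genes, 39 of 60 (65.0%) had a member and 9 of 43 starts (20.9%) lay inside one. Their median length, 36.3 kb, fell in the same length class. The median GC of their starts was 65.7%, and members covered 20.7% of all starts from 65% to 70% GC. The signal transducer gene Smad2 (9.21) and the receptor genes Bmpr1a (8.51) and Tgfbr3 (7.95) led by fold, with Maml2, a Notch coactivator gene (7.76).

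Each list of long genes was set beside the class of all genes that holds its median length, counting summits in the body or within 5 kb. Neuronal adhesion and synapse genes, with a median length of 881 kb, had a member at 50 of 58 (86.2%), beside 83.6% for all genes of at least 300 kb. Their starts were covered in 9 of 36 (25%). Cdh18 (11.70), Grm8 (11.15) and Asic2 (10.55) were among those with the highest folds, all inside the gene and in peaks of 678 to 907 bp. Cytoskeletal crosslinkers and plus-end genes, with a median of 77.2 kb, had members at 38 of 50 (76.0%), beside 57.2% for all genes of 50 to 100 kb, and 6 of 35 starts (17.1%). The microtubule plus-end genes Clasp1 (10.93) and Clasp2 (8.73) and the linker genes Ank3 (9.25) and Dst (9.21) led.

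Hox, forkhead and Sox genes, regulators of development, had shares above those over all genes. Of 39 Hox genes, which set position along the body axis, 28 (71.8%) had a member within reach at a median length of 3.74 kb, and 8 of 22 starts (36.4%) lay inside one. Neighbouring Hox genes share peaks: the same member served Hoxa2 and Hoxa3 (7.06, 96 reads), and another served Hoxd11 and Hoxd12 (5.93, 97 reads). Genes under 5 kb had a member in 14.7% over all. Forkhead and Sox genes had 29 of 52 (55.8%) at a median length of 5.17 kb and 10 of 32 starts (31.3%). Sox6 (8.24), Foxj2 (8.12), Sox5 (7.97) and Foxp1 (7.74) led by fold. Near the shares over all genes in the body or within 5 kb, E2F, class 1 helix-loop-helix genes and their partners had 13 of 32 (40.6%) and 4 of 26 starts (15.4%), led by E2f5 (8.73), the Polycomb methyltransferase gene Ezh2 (6.95), Rb1 (6.79) and Tcf4 (6.15). Cell cycle genes had 17 of 46 (37.0%) and 7 of 36 starts (19.4%), with Cdk6 (7.76), Mdm2 (6.86), Mki67 (6.77) and Cdc25c (6.15) first.

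Cytosolic ribosomal protein genes had a member at 16 of 81 (19.8%) at a median length of 3.18 kb, beside 14.7% of all genes under 5 kb, and 3 of 61 starts (4.92%) lay inside one, those of Rpl38, Rpl6 and Rps3. Their starts had a median GC content of 57.7%, near that of the Hox starts (57.7%), of which 36.4% were covered. Rps3 (5.74), Rpl4 (4.94) and Rps15 (4.61) were among those with the highest folds. Proteasome and chaperonin genes had 11 of 39 (28.2%) and 4 of 32 starts, led by Cct7 (7.63), Psmd1 (7.42), Psma2 (6.63) and Psmd4 (6.11). Olfactory receptor genes, which sit in clusters and act in the nose, had 32 of 1106 (2.89%) and 2 of 940 starts (0.213%), at a median start GC of 35.0%. Olfr1477 (9.70), Olfr180 and Olfr181, which share a peak (9.21), and Olfr654 (8.41) led. Zinc finger Zfp genes had 118 of 367 (32.2%) and 39 of 305 starts (12.8%), led by Zfp14 (9.70), Zfp951 (9.21), Zfp992 (9.10) and Zfp445 (8.99).

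Lists of other cell types were met as well, though a peak says nothing of expression. Fat cell genes had 11 of 23 (47.8%) and 5 of 15 starts (33.3%), those of Pparg, Cebpa, Cfd, Ebf1 and Klf4. Ebf1, an early adipocyte and B cell factor gene, also held the list's highest fold (12.03, 37 reads), followed by Ppargc1a (6.82), Plin1 (6.03) and Zfp423 (5.71). Cartilage and muscle genes had 18 of 32 (56.3%) and 5 of 26 starts (19.2%), with Matn3 (7.91), Col9a1 (6.79), Pax7 (5.94) and Ryr1 (5.94) first. The histone list matched 0 gene symbols and gave no value.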

How the data were processed

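The submitters' processing notes name cutadapt, Bowtie2 and the build GRCm38; versions are not given in the sources used here. Each immunoprecipitate was set against its own input, without pooling, by MACS 1.4.2, per the file headers. The headers also give a p threshold of 1.00e-05, a bandwidth of 300 bp and 1 read kept per position. Counts of reads in a peak, as deposited, are whole reads left after duplicate removal. The deposited fold enrichment is a ratio at the summit to the local input background. The deposited score is 10 times the negative log10 p, and the deposited false discovery rate is in percent. Headers give 18454330 reads in knockdown 1 and 27126451 in its input. These values are the authors' and were used within a list.

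Members were found by interval overlap (pandas 2.3.3, NumPy 2.4.6), a step checked on simulated intervals. Summits were placed on 21883 protein-coding genes of RefSeq GRCm38.p6, and 21262 starts of 17491 genes came from the promoter table. It holds no gene of chromosome 18 and 54.4% and 69.6% of those of chromosomes 15 and 8. Base shares used the span from first to last gene. Wilson intervals (95%, SciPy 1.17.1) cover counting error only. No test was run, since the members come from 1 library and the rule chose them by their overlap with the other lists. Starts and strand became known only with the promoter table, so results on starts were added to the planned ones. Named by rule were the 10 members highest by fold, by reads and by width, the 5 nearest to another list, the 10 genes with most summits, up to 4 genes a list by fold, and Macf1; a few of these are not reported here. A summit between genes was named by the nearest gene, and one in several genes by the shortest. The members, and the 16 gene lists, were chosen with earlier results of these data known. Of 2111 entries, all matched a gene; 5 lists were built from symbol patterns, of which 1 found none.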

Additional observations from a re-analysis of the deposited data

How the results depend on the processing

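Of 87 recomputed values, 62 stayed within the interval of the reported value or, for counts, within 1.5 times of it. This tally is no measure of stability, since part of it was fixed beforehand. Control 1 met 0 knockdown 1 peaks, control 2 met 1, knockdown 2 met 43 and control size3 met 105. Leaving out any of these lists could change little. With a score of at least 100, members numbered 1862 and genes with one 1635. Of these members, 28.0% lay at gene ends, 24.1% at starts and 71.8% inside genes, with medians of 1764 bp, 111 reads and a fold enrichment of 4.83. If a peak counted as shared only when at least 50% of it was covered, 15.1% lay at gene ends, 11.5% at starts and 61.6% inside genes, with medians of 983 bp, 46 reads and a fold of 5.00. With windows of 500 bp and 2 kb, 10.1% and 19.7% lay at gene ends and 8.79% and 12.97% at starts, where wider windows hold more by construction. Without chromosomes 8, 15 and 18, chosen after seeing the data, 11.6% lay at starts. The cause of the other changes was not tested.

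Leaving out each of the other 5 libraries gave 19312 to 21249 members and 8544 to 9298 genes. The share at gene ends was 14.4% to 15.8%, at starts 10.95% to 12.1% and inside genes 60.6% to 61.8%, with medians of 943 to 987 bp, 43 to 46 reads and a fold of 4.98 to 5.10. The highest counts came without knockdown size3. Leaving out knockdown 1 leaves no member. A false discovery rate of at most 1% left 0 members, so that alternative has no value, and a limit of 5% was added after seeing the data. No paired analysis was possible because the members come from 1 library and no test was made. With a median of 43 reads, a member's fold enrichment rests on few reads.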
